A study of Homo sapiens with 2 samples.

Results

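The chaperonin CCT, also called TRiC, is a double-ring protein complex of the cytosol that takes up unfolded proteins, actin and tubulin above all, and releases them folded in cycles driven by ATP. Each ring holds 1 copy of each of 8 related subunits, made by the genes TCP1, CCT2, CCT3, CCT4, CCT5, CCT6A, CCT7 and CCT8, so that their transcripts are needed side by side. In yeast the TCP1, CCT2, CCT4 and CCT5 subunits bind ATP readily and lie on one side of the ring, while the CCT3, CCT6A, CCT7 and CCT8 subunits bind it weakly.

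The 8 genes were taken by their positions in the hg19 build and not by any measured value, and every listed A position of the transcript strand inside each span was used. That gave 4558 of 3518802 listed positions in the ABA library and 4662 of 4079392 in the library without ABA. The cells were HEK-293T, a human embryonic kidney line, and carried a CIRTS-hADAR biosensor in both conditions. CIRTS joins an RNA-binding module to an effector, here a human ADAR, an enzyme that turns adenosine into inosine, which is read as G. The ABA library came from cells given the small molecule ABA and the other library from cells without it. There was 1 library per condition from 1 biological replicate, so no difference below has a replicate check, and p-values compare 2 libraries, not the conditions. All intervals are 95% intervals and cover the error of counting only.

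The TCP1 span was chr6:160199530-160210735 on the minus strand and that of CCT2 was chr12:69979114-69995350 on the plus strand. CCT3 lay at chr1:156278752-156308206 (minus), CCT4 at chr2:62095224-62115939 (minus) and CCT5 at chr5:10250033-10266501 (plus). CCT6A lay at chr7:56119323-56131682 (plus), CCT7 at chr2:73460548-73480144 (plus) and CCT8 at chr21:30428126-30446118 (minus). Listed positions fell into 12 (CCT8) to 15 (CCT2) blocks per gene, a block being positions no more than 100 nt apart. Whether a position is exonic, intronic or in a UTR was not determined, since no annotation of the hg19 build was used.

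The CCT transcripts were covered more deeply than most of the series. Their median depth was 32 reads per position with ABA and 29 without ABA, against 10 in each whole library. Of the CCT positions, 79.7% with ABA and 74.8% without ABA had at least 20 reads, against 13.7% and 12.5% of all nuclear positions (chromosomes 1 to 22 and X). Mean depth was taken over listed A positions, each of at least 6 reads, and not over the transcript length. It was highest for CCT3, at 51.2 reads with ABA and 43.0 without ABA. CCT6A had the lowest, 24.0 and 21.4 reads. CCT7 came next to CCT3 with 43.7 and 38.8 reads, and CCT2 and CCT8 lay near the low end with 28.5 and 26.9 reads with ABA and 27.3 and 25.5 without ABA. CCT3 was thus at the top and CCT6A at the bottom in each library. Replicate spread is not known, so neighbours in this order cannot be told apart beyond counting error.

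As a whole, the CCT transcripts carried more A-to-G mismatches with ABA, by about as much as other nuclear transcripts did. Pooled over the 8 genes the A-to-G rate, G reads over A plus G reads, was 0.0927% (0.0782 to 0.109; 144 of 155298 reads) with ABA and 0.0537% (0.0423 to 0.0672; 76 of 141586 reads) without ABA. The ratio was 1.73 (1.30 to 2.31), and the interval does not reach 1. Nuclear positions outside the CCT genes had 0.0776% with ABA and 0.0386% without ABA, and their ratio was 2.01 (1.98 to 2.05). The CCT ratio divided by that of the rest was 0.859 (0.650 to 1.14), so no difference from the rest was detectable at this depth. A position whose G share reached 35% in one of the libraries could be a variant of the cell line and was kept out of the mismatch rates and the tests of regions. There were 2 of them in the CCT genes, both in CCT5. The tests of single positions and the depth values kept such positions, and edited sites left out only those where both shares reached 95%.

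Changes that ADAR does not make set the background. Reads of A-to-C or A-to-T summed to 35 with ABA and 21 without ABA in the 8 genes, rates of 0.0226% (0.0157 to 0.0314) and 0.0148% (0.00919 to 0.0227). Their ratio was 1.52 (0.861 to 2.75), which overlaps the A-to-G ratio of 1.73, so from these genes alone the A-to-G difference cannot be told apart from a difference in all mismatches. In the rest of the nuclear positions the same background had a ratio of 1.11 (1.07 to 1.14). A-to-T alone stood at 18 and 8 reads in the CCT genes, with 6 of the 18 and 1 of the 8 in CCT7.

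**Figure D1:**
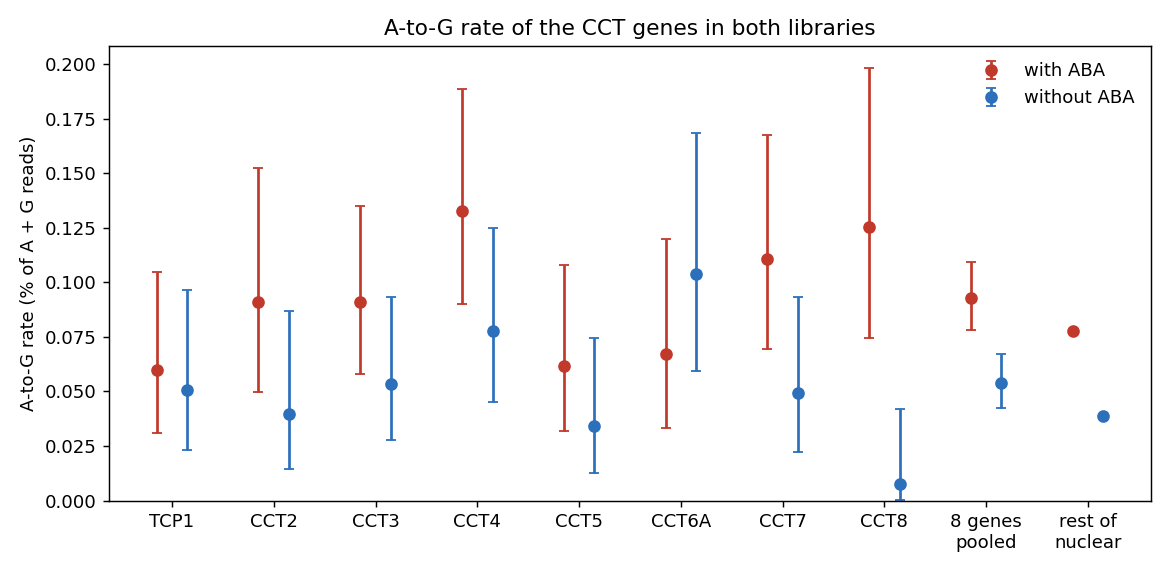
A-to-G rate in percent of A plus G reads (y axis) for each CCT gene, the 8 genes pooled and the rest of the nuclear positions, with ABA (red) and without ABA (blue). Bars are exact 95% intervals of 1 library each. The red point is the higher one in every gene except CCT6A, and the intervals overlap in every gene except CCT8.

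Among the subunits that bind ATP readily, all 4 genes had a higher rate with ABA and 0 passed the test (exact p from 0.0831 to 0.828, adjusted p = 1 for each). CCT4, whose protein can form rings by itself when made alone, had the highest rate of the 8 genes with ABA, 0.133% (31 of 23346 reads), against 0.0779% (17 of 21819 reads) without ABA, a ratio of 1.70 (0.915 to 3.28). Of the 31 G reads with ABA, 9 lay at 1 position described below, so this rank rests in part on that position. With that position left out the CCT4 ratio was 1.58. CCT2 had 14 G reads (0.0908%) with ABA and 6 (0.0399%) without ABA, a ratio of 2.28 (0.821 to 7.22). CCT5, the other subunit known to form rings of its own, had 12 G reads (0.0617%) and 6 (0.0343%), a ratio of 1.80 (0.625 to 5.84). Each of these intervals includes 1, so no difference was detectable at this depth. TCP1, the subunit that was described first, had the smallest excess, with 12 G reads (0.0599%) with ABA and 9 (0.0507%) without ABA, a ratio of 1.18 (0.457 to 3.17). Its direction rested on 1 position: with the TCP1 position of most G reads left out the ratio was 0.984.

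The subunits that bind ATP weakly held both extremes. CCT8 had 18 G reads of 14335 (0.126%, 0.0744 to 0.198) with ABA and 1 of 13333 (0.00750%, 0.000190 to 0.0418) without ABA. The intervals do not overlap, and the ratio was 16.7 (2.64 to 698). CCT8 rose at an adjusted p of 0.0286 from Fisher's exact test, adjusted by Benjamini-Hochberg over 10196 regions, these being the 8 genes and 20-kb strand windows of at least 1000 reads. Of all regions 0.363% were called higher and 0% lower, and the 8 CCT genes gave 1 call, CCT8. Most of these regions were shallower than the CCT genes. Among the 530 windows of at least 10000 reads in each library, 134 were higher and 3 lower at an unadjusted exact p under 0.05. At that threshold stood 2 of the 8 genes, CCT7 and CCT8, both higher. The share of adjusted calls among the deeper windows was not determined. Beside the main value of 16.7, the CCT8 ratio was 14.9 with its position of most G reads left out. It was 16.0 with reads thinned, at positions listed in both libraries, to the lower count at each position, in 1 random draw. Neither of these settings made the call (adjusted p = 0.0707 and 0.0798, exact test). Over 8 alternatives with an exact test the adjusted p ran from 0.00242 to 0.0798 and 6 made the call. The G-test gave an adjusted p of 0.0116. Several of these alternatives changed only the other regions of the adjustment and left the CCT8 reads as they were. The lowest value came from such a setting, windows of at least 10000 reads in each library, chosen after seeing the data. Where the CCT8 reads themselves changed, the values were 0.0255 (positions listed in both libraries), 0.0122 (positions of at least 20 reads), 0.0707 and 0.0798.

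The CCT8 test is against equal rates. Against the ratio of the nuclear rest, 2.01, the CCT8 ratio was 8.33 times as high (1.11 to 62.4), with an exact binomial p of 0.0117 and an adjusted p of 1. The library without ABA was the unusual one: 1.70% of the 530 windows with at least 10000 reads in each library had a lower rate than CCT8 there, while with ABA 75.1% had a lower rate than CCT8. CCT8 background changes numbered 4 reads with ABA and 2 without ABA.

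CCT6A was the one gene with a lower rate with ABA. It had 11 G reads of 16416 (0.0670%) with ABA and 16 of 15419 (0.104%) without ABA, a ratio of 0.646 (0.271 to 1.48) that was not past the test of equal rates (exact p = 0.336, adjusted p = 1). Against the ratio of the rest its ratio was 0.321 times as high (0.149 to 0.692), with an exact binomial p of 0.00345 and an adjusted p of 1. The CCT6A ratio was 0.522 with its position of most G reads left out and 0.315 over positions with at least 20 reads in the library, which leaves out the ABA reads of the CCT6A position described below. The reference gene table lists 5 pseudogenes named after CCT6, more than after any other CCT gene, and reads of near-identical copies could be placed on the wrong one. Their part in the CCT6A counts was not tested.

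CCT7 and CCT3 lay between these extremes. CCT7 had 22 G reads (0.111%, 0.0695 to 0.168) with ABA and 9 (0.0491%, 0.0225 to 0.0933) without ABA, a ratio of 2.26 (0.998 to 5.56) with an unadjusted exact p of 0.0463 and an adjusted p of 0.978. CCT3, the most deeply covered gene, had 24 (0.0908%) and 12 (0.0535%), a ratio of 1.70 (0.816 to 3.72). Both intervals of the ratio over that of the rest include 1: CCT7 stood at 1.12 times that ratio (0.516 to 2.44) and CCT3 at 0.844 times (0.422 to 1.69). Background changes in CCT7 numbered 8 reads with ABA and 3 without ABA, a ratio of 2.46 (0.591 to 14.4). In CCT3 they numbered 5 and 2, a ratio of 2.12 (0.347 to 22.3). Each of these ratios was above the A-to-G ratio of its gene, with a wide interval.

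Counted by gene, 7 of 8 had the higher rate in the ABA library. That share is close to the background, since among windows the ABA rate was the higher one in 83% of the 530 that had at least 10000 reads in each library, and in 60.5% of the 10188 that had at least 1000. Against the ratio of the rest, 0 of 8 genes were called by the exact binomial test after adjustment, beside 0.0392% of all regions, while at an unadjusted p under 0.05 there were 2, CCT6A below and CCT8 above. At that unadjusted threshold stood 2.07% of all 10196 regions and 8.87% of the 530 windows of at least 10000 reads.

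**Figure D2:**
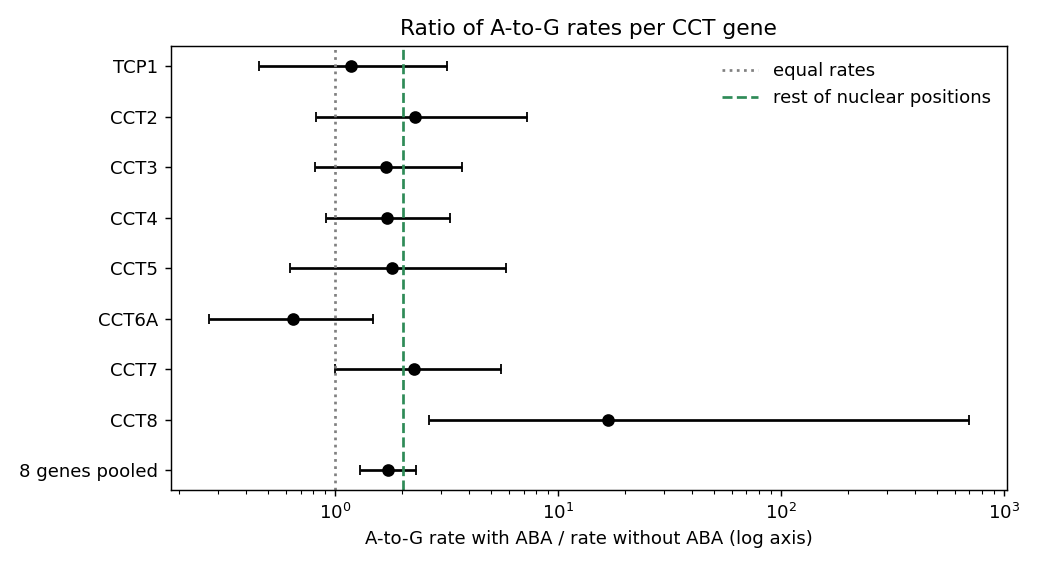
A-to-G rate with ABA over the rate without ABA (log x axis) for each CCT gene and for the 8 pooled, with exact 95% intervals. The dashed line marks 2.01, the ratio of the rest of the nuclear positions, and lies inside the interval of every gene except CCT6A and CCT8.

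Depth bears on these rates, since deeper positions elsewhere in the nuclear transcripts had higher A-to-G rates. In the rest of the nuclear positions the rate was 0.0560% with ABA and 0.0264% without ABA where the mean depth of both libraries was under 10 reads, and 0.229% and 0.123% where it was 50 or more. When the rest was weighted to the depth classes of the CCT genes, 191.5 G reads were expected with ABA and 92.9 without ABA. The observed 144 and 76 were 0.752 (0.634 to 0.885) and 0.818 (0.644 to 1.02) times these numbers. Against this mean, weighted by reads, the CCT genes had fewer G reads with ABA, and the interval without ABA includes 1. Set against the middle of other transcripts the order is the other way: the median rate of the 530 windows of at least 10000 reads was 0.0762% with ABA and 0.0442% without ABA, both below the pooled CCT rates, and with ABA 5 of 8 CCT genes lay above the rate of most of these windows, CCT3 above 60.4%. These intervals are exact Poisson and take the G reads as independent. By gene, on the depth-weighted mean, CCT5 (0.542, 0.280 to 0.947), CCT3 (0.549, 0.352 to 0.817) and TCP1 (0.558, 0.288 to 0.974) lay below 1 with ABA, and CCT8 had the highest value, 1.39 (0.824 to 2.20). Without ABA the extremes were CCT6A, 2.27 (1.30 to 3.69), and CCT8, 0.155 (0.00394 to 0.866). Of the 16 G reads of CCT6A without ABA, 7 lay at 1 position, described below. Its G share was 31.8% without ABA and 33.3% with ABA. The CCT6A value thus rests in part on that position, and its interval takes those 7 reads as independent.

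The G reads were scattered singly over the transcripts. With ABA 120 of 4556 CCT positions (2.63%) had a G read, and 107 of these had 1 alone. Without ABA 66 of 4660 positions (1.42%) had one, and 63 of these had 1 alone. A G read in both libraries was found at 7 positions. Positions with at least 3 G reads numbered 2 in each library, the same 2 positions, 1 in CCT4 and 1 in CCT6A.

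The CCT4 position, at 62115580 of chromosome 2 (minus strand), had 13 G reads over both libraries, as did the CCT6A position. It had 9 of 78 reads with G (11.5%, 5.41 to 20.8) with ABA and 4 of 81 (4.94%, 1.36 to 12.2) without ABA. This was the largest increase of any CCT position with at least 20 reads in both, and the intervals overlap (exact p = 0.155, adjusted p = 1). The position lies 359 nt from the 5' end of the CCT4 span, and it held every G read of the first CCT4 block, 38 positions long. The CCT6A position, at 56130743 of chromosome 7 (plus strand), had 6 of 18 reads (33.3%, 13.3 to 59.0) with ABA and 7 of 22 (31.8%, 13.9 to 54.9) without ABA. Its share was nearly the same in both libraries and lay just under the 35% at which a position was left out as variant-like. It carried 6 of the 11 and 7 of the 16 G reads of CCT6A.

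The 2 positions left out were fully G in both libraries. CCT5 at 10254817 of chromosome 5 (plus strand) had 37 of 37 reads with ABA and 21 of 21 without ABA. CCT5 at 10264962 had 23 of 23 and 24 of 24. Every read thus differed from the hg19 base at these 2 positions whatever the condition.

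No single CCT position passed the test between libraries. At 3323 CCT positions both libraries had 20 reads or more. A call needed an adjusted p below 0.05 from Fisher's exact test and a share moved by 10 percentage points, and 0 positions met it, while 0 had an unadjusted p under 0.05. Over all 359090 such nuclear positions 0% were called higher and 0% lower. At the depth of the CCT positions, a change of 10 percentage points alone could not reach the adjusted threshold over this many positions. The 0 calls therefore do not exclude such a change. The G share was higher with ABA at 110 CCT positions (3.31%) and lower at 53 (1.59%), against 3.3% and 1.87% of all nuclear positions tested. CCT8 had 16 higher and 1 lower, and CCT6A 3 higher and 6 lower. A change of 5 percentage points or more was found at 2 positions, both higher with ABA: the CCT4 position above and CCT6A at 56130878, with 2 of 40 reads with ABA and 0 of 45 without ABA. For 0 of 45 reads a share of up to 6.67% is allowed by the floor of 3 reads over the depth, and the Clopper-Pearson interval reaches 7.87%.

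In the other genes the largest single changes rested on 1 or 2 reads. The largest higher shares were at 30433604 of chromosome 21 in CCT8, with 2 of 42 reads with ABA and 0 of 36 without ABA (which allows up to 8.33%), and at 73470181 of chromosome 2 in CCT7, with 2 of 48 with ABA and 0 of 48 without ABA (up to 6.25%). CCT3 had 2 of 52 with ABA and 0 of 40 without ABA (up to 7.50%) at 156287268 of chromosome 1. None of these shares with ABA separated from the share without ABA (Fisher's exact test, unadjusted p from 0.495 to 0.503). In CCT2, CCT5 and TCP1 the largest increase was 1 read with ABA against 0 without ABA, at 69991421 of chromosome 12, 10260908 of chromosome 5 and 160208808 of chromosome 6. The largest decrease in each gene was likewise 0 G reads with ABA against 1 without ABA, from 2.56 percentage points in TCP1 at 160209113 to 4.55 in CCT2 at 69995236. In CCT8 it was 4.17 points at 30440002, the one CCT8 position with a G read without ABA. Those of CCT3 at 156280388, CCT4 at 62100360, CCT5 at 10260965, CCT6A at 56128556 and CCT7 at 73475039 lay between these. With an edited site taken as one of at least 20 reads, 3 G reads and a 10% share (left out when both shares reached 95%), the CCT genes held 1 edited site in each library, the CCT4 position with ABA and the CCT6A position without ABA, where CCT6A had 18 reads with ABA. Per 10000 covered positions that was 2.75 with ABA and 2.87 without ABA, against 4.25 and 1.96 in the rest of the nuclear positions.

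**Figure D3:**
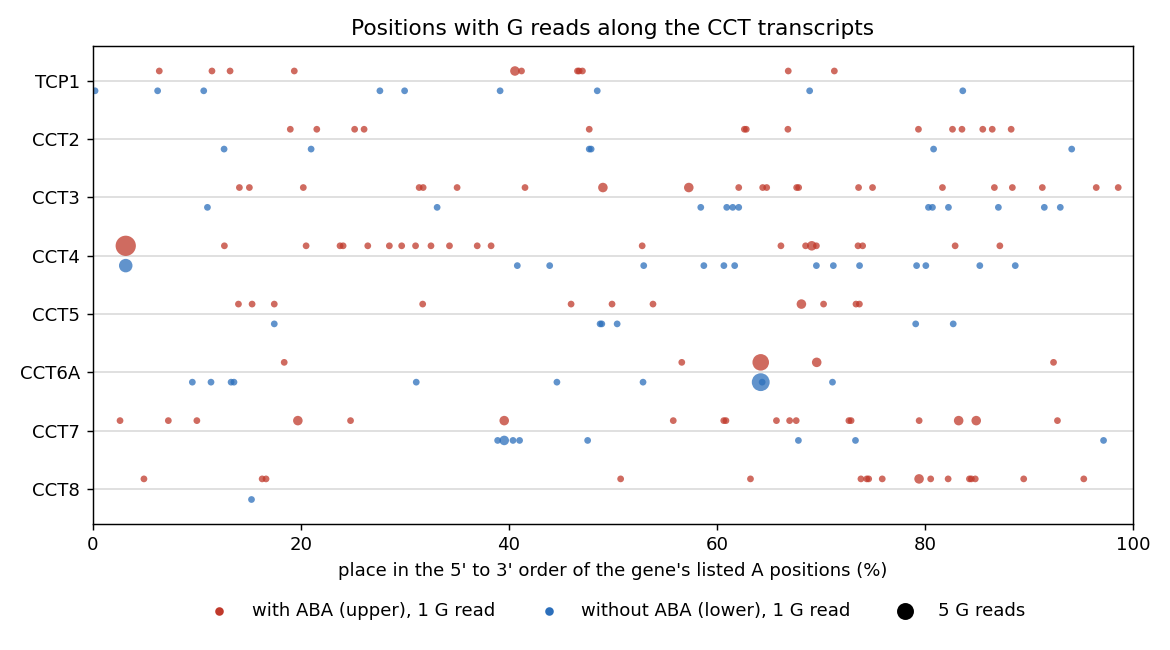
Positions with a G read in each CCT gene, placed by their order among the listed A positions of that gene from 5' to 3' (x axis, percent). Red points above each line are reads with ABA and blue points below are reads without ABA, with area in proportion to the G reads. The large points are the CCT4 position with 9 and 4 G reads and the CCT6A position with 6 and 7, and CCT8 has 1 blue point.

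Along the transcripts the G reads of the pooled genes had no preferred end. With the listed positions of each gene divided from 5' to 3' into 4 stretches of equal number, the rate with ABA was 0.100%, 0.0625%, 0.112% and 0.101%, and that without ABA was 0.0505%, 0.0461%, 0.0629% and 0.0553%. All 4 stretches had more with ABA, with ratios from 1.36 (0.732 to 2.57) in the second to 1.98 (1.07 to 3.83) in the first. Within CCT8 the stretch at the 3' end held 10 of its 18 G reads with ABA (0.235%, 0.113 to 0.431) and 0 of 3547 reads without ABA, which allows up to 0.0846%. CCT4 had 13 of its 31 G reads with ABA in the stretch at the 5' end, 9 of them at the position named above. Of 108 blocks over the 8 genes, 48 had a higher rate with ABA, 21 a lower one and 39 no G read in either library. The same shares over blocks of other transcripts were not determined.

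The difference between libraries was not the same at all CCT positions, and it went with the base after the A. ADAR enzymes are known to act unevenly on adenosines according to the bases beside them. The neighbour of an A was counted as an A when its position was itself listed in either library. An A listed in neither library was counted as no A, so positions without an A beside them are those without a listed A. At the 1535 CCT positions followed by an A on the 3' side, the rate was 0.0422% (0.0262 to 0.0646) with ABA and 0.0502% (0.0319 to 0.0754) without ABA, a ratio of 0.841 (0.443 to 1.59). At the 3189 positions not followed by an A it was 0.116% (0.0968 to 0.139) with ABA and 0.0553% (0.0414 to 0.0723) without ABA, a ratio of 2.11 (1.51 to 2.96). The second ratio was 2.50 times the first (1.28 to 4.91), an interval that does not reach 1. This comparison was chosen with results of these data known.

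Within the ABA library the rate at CCT positions without an A on the 3' side was 2.76 times that at positions with one (1.73 to 4.61), and in the library without ABA it was 1.10 times (0.663 to 1.88). The rest of the nuclear positions had the same order, 1.98 times (1.92 to 2.03) with ABA and 1.26 times (1.22 to 1.30) without ABA. By gene, G reads at positions not followed by an A were more numerous with ABA in 7 of 8. Examples were 22 against 9 in CCT3, 20 against 7 in CCT7 and 15 against 1 in CCT8. CCT6A had 9 with ABA and 12 without ABA. These are counts of reads and not rates, and all 8 genes were covered more deeply with ABA. Without this split, the ABA rate was the higher one in 83% of the 530 windows of at least 10000 reads. The share of windows with the split was not determined. On the 5' side the CCT positions preceded by an A had a ratio of 2.45 (1.46 to 4.26) and those not preceded by one 1.45 (1.03 to 2.07). The first was 1.69 times the second (0.922 to 3.09), which includes 1.

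**Figure D4:**
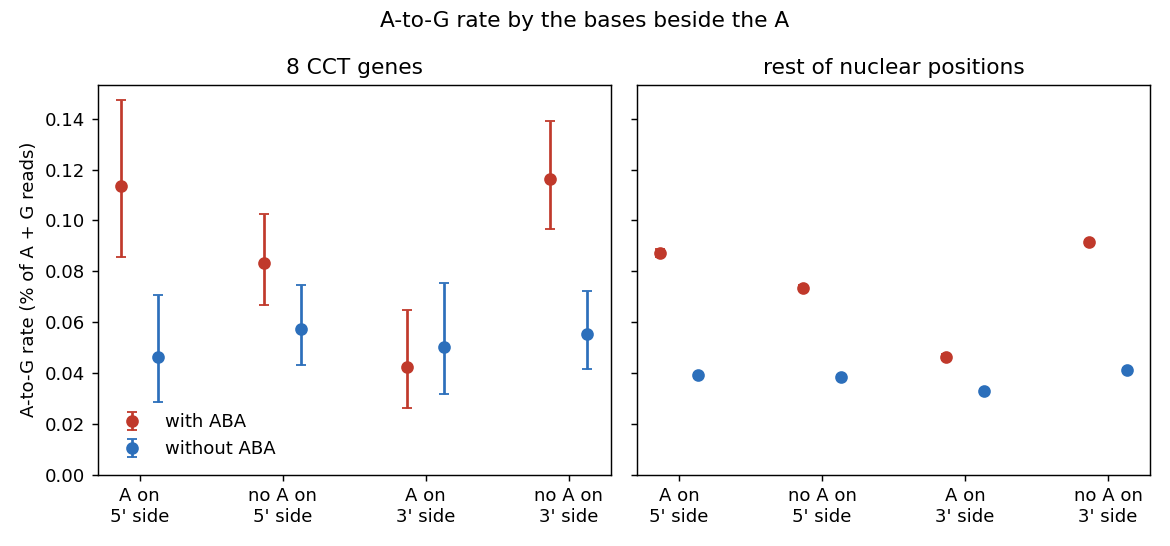
A-to-G rate in percent (y axis) by whether the base on the 5' or the 3' side of the A is also a listed A. The 8 CCT genes are on the left and the rest of the nuclear positions on the right, with ABA (red) and without ABA (blue). Bars are exact 95% intervals. In the CCT genes the rates with and without ABA overlap at positions with an A on the 3' side, 0.0422% and 0.0502%, and stand apart where there is none, 0.116% and 0.0553%.

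All 8 CCT genes were covered somewhat more deeply with ABA. At positions listed in both libraries, CCT3 had 660.5 base reads per 1000000 nuclear base reads with ABA and 544.8 without ABA, a ratio of 1.21 (1.19 to 1.23), the highest of the 8. TCP1 followed with 500.1 and 425.5, a ratio of 1.18 (1.15 to 1.20), and CCT5 with 485.9 and 421.5, a ratio of 1.15 (1.13 to 1.18). The ratio was 1.12 for both CCT7 (495.8 and 441.9) and CCT6A (409.4 and 366.9). CCT4 (576.0 and 524.0) and CCT8 (355.1 and 323.6) stood at 1.10, and CCT2 was lowest with 385.3 and 364.4, a ratio of 1.06 (1.03 to 1.08). A base read is 1 read at 1 position, and 1 read spans several positions, so these intervals are too narrow and no p was formed.

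Most of these ratios were within the spread of other transcripts. A depth ratio above 1 was found in 48.7% of 9160 windows of at least 1000 base reads and in 61.2% of 498 windows of at least 10000, against 8 of 8 CCT genes. Among the deeper windows the ratio ran from 0.888 at the 10th percentile to 1.17 at the 90th, and of the 8 genes CCT3 and TCP1 lay above that value. CCT8, with the highest A-to-G ratio, was the seventh by depth ratio. At single positions the depth was relatively higher with ABA at 86.3% of CCT3, 76.8% of CCT7 and 74.8% of TCP1 positions, and at 62.0% of CCT2 positions, against 52.2% of all nuclear positions. In bulk RNA, a higher share of reads cannot be told apart from less RNA of other genes, nor more RNA per cell from more cells.

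**Figure D5:**
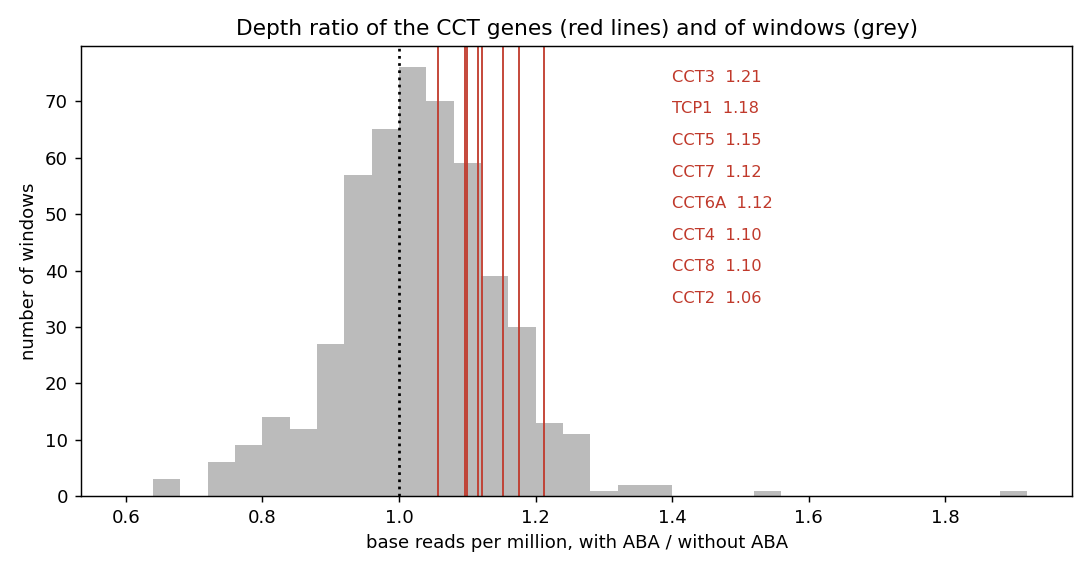
Base reads per 1000000 with ABA over those without ABA (x axis) for the 8 CCT genes (red lines, values printed) and for 498 strand windows of 20 kb with at least 10000 base reads in each library (grey bars, number of windows on the y axis). All 8 genes lie right of 1, between 1.06 for CCT2 and 1.21 for CCT3.

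As the 8 genes all had a depth ratio above 1, the stretch upstream of the transcription start is shown for the genes with the highest depth ratios, CCT3 and TCP1, and the lowest, CCT2. The sequences are the last 160 bases before the start in RefSeq, build GRCh38.p14, read 5' to 3' on the transcript strand, at chr1:156338293-156338452 (minus), chr6:159789603-159789762 (minus) and chr12:69585299-69585458 (plus). Capitals mark CCAAT and GGGCGG on either strand, the letters bound by the factors NF-Y and SP1.
CCT3: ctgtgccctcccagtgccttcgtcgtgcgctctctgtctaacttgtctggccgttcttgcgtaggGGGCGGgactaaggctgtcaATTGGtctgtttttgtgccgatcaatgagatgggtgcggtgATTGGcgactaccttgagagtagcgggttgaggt
TCP1: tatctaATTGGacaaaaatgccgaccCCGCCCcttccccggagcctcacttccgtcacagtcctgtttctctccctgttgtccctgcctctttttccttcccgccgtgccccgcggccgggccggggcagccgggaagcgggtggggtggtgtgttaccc
CCT2: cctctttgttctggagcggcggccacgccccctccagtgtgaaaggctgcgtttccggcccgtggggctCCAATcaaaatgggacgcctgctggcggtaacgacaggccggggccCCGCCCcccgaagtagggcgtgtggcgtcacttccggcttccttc

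Of the 8 genes, 7 had an entry in the promoter table, and CCT6A was not matched. The 7 genes had 9 windows of 250 bases before to 50 after the start. CCAAT on either strand was found in TCP1, CCT2, CCT3 and CCT8, in 4 of the 9 windows, against 34.6% of 35116 windows of all genes. GGGCGG was found in 5 of the 7 genes and in 6 of the 9 windows, against 45.0% of all windows. GAANNTTC, the inverted pair of units in heat shock elements, was found in TCP1 and CCT2, in 2 of the 9 windows, against 6.77%. TTCNNGAA, the other arrangement, was found in CCT4, in 1 of the 9 windows, against 7.74%. Genes with more than 1 start have more than 1 window. The 3 sequences printed each hold CCAAT and GGGCGG, at both ends of the range of depth ratios. A match of letters is a description of the sequence alone.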

How the data were processed

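Messenger RNA of HEK-293T cells was sequenced with and without ABA, 1 library each. Per the submitters' processing notes, reads were handled with cutadapt and HISAT2 on the hg19 build. Which program counted the bases: not given in the sources used here. The authors deposited raw read counts of each base at A positions of the plus strand and T positions of the minus strand, with a single base read cutoff of 5 per the file headers, and the lowest listed depth is 6 reads. Minus-strand counts were complemented. The libraries held 45277712 (ABA) and 51092343 (no ABA) base reads.

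Shares have Clopper-Pearson intervals, ratios exact conditional binomial ones, and ratios of ratios normal approximations on the log scale. Fisher's exact test (two-sided) was run on the 359090 nuclear positions where each library had 20 reads or more, and on all regions, with Benjamini-Hochberg adjustment over each whole table. The exact binomial test set each region's split of G reads against the ratio of the rest. Each position's neighbours were taken from the listed positions of either library. The upper value given for 0 reads is a floor of 3 reads over the depth, which lies below the upper Clopper-Pearson limit. Both Fisher tests were tested on simulated data. Without molecular identifiers, reads are not independent molecules. The sites named were, per gene, the largest rise, the largest fall, and positions with at least 3 G reads, up to 5. The members, lists and tests were chosen with earlier results of these data known. Prefoldin and other cochaperone genes, and marker genes of the cell line, were not analysed here because their hg19 positions were not given. Alternatives covered variant-like positions, coverage, thinning, windows, the test and the scaling. Tests ran in scipy 1.17.1 under Python 3.11.15 with pandas 2.3.3 and numpy 2.4.6 (random seed 1), and matplotlib 3.10.9 drew the plots.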

Additional observations from a re-analysis of the deposited data

How the results depend on the processing

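No paired analysis was possible because each condition had 1 library. The pooled A-to-G ratio, its ratio to the rest and the count of 7 genes higher with ABA stayed within the intervals, or within 1.5 times the count, under every alternative run. With the position of most G reads of each gene left out, 0 genes were called against equal rates, and with thinned reads 0, in place of 1. Without those positions the TCP1 ratio turned to 0.984. The CCT8 ratio was 14.9 without those positions and 16.0 with thinned reads, against 16.7, and why the call was lost was not tested. A change of at least 5 percentage points gave 2 CCT sites higher by size alone, in place of 0 at 10 points. The median depth ratio of the genes was 1.22 over all listed positions, in place of 1.12. Where each library had 20 reads or more it fell to 1.08, from 1.03 in CCT2 to 1.16 in CCT3. All 8 genes kept a depth ratio above 1 under each of these alternatives and each scaling run. Depth at positions of 20 reads or more in each library, the windows of at least 10000 reads and leaving out each gene were chosen after seeing the data. Depth is one limit of the site test, with a median CCT depth of 32 reads with ABA and 29 without ABA.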

Other observations

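The opposite strand inside the CCT spans held few reads. It had 156 listed positions, with 1644 reads with ABA and 1401 without ABA. Of the 156 positions 104 lay inside the TCP1 span, and none inside the spans of CCT2, CCT6A, CCT7 and CCT8. G reads numbered 0 of 1644 with ABA, which allows a rate of up to 0.182%, and 1 of 1401 without ABA.

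The 4 genes on the plus strand and the 4 on the minus strand were also set side by side. The A-to-G ratio was 1.49 (0.968 to 2.30) for the plus-strand genes and 1.95 (1.32 to 2.93) for the minus-strand genes, whose intervals overlap.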
